A study of Mus musculus with 12 samples.

Results

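The genes described here are the collagen genes of the mouse, taken as every gene of the array's annotation whose symbol is Col, a number, a and a number (such as Col1a1). There were 42 such genes among 17097 genes with a named probe set, and 32 of the 42 had a signal high enough to be tested. The 12 arrays hold RNA of lung fibroblasts, 2000 cells a sample, sorted from dispase digests of mouse lungs 5 days after surgery. All animals carried GFP as a reporter of Pdgfra, the gene of PDGF receptor alpha, and cells of a bright and of a dim GFP gate were sorted. Mice of the SHAM groups were operated on without loss of lung tissue. In the PNX groups part of the lung was taken out (partial pneumonectomy), which is followed by regrowth of what remains. The PNX-dnFGFR groups had the same operation in mice that also express dominant-negative FGFR2, a form of FGF receptor 2 that blocks signalling by the receptor. There were 6 groups of 2 arrays, given as biological replicates. The labels do not say whether a replicate is 1 animal or a pool, which promoter drives the dominant-negative receptor, or how old the animals were. SHAM and PNX-dnFGFR differ in both the surgery and the receptor, so that these cannot be told apart in a comparison of the 2 groups.

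Collagens are trimers of alpha chains, and each chain has a gene of its own. Fibrillar collagens form the tensile fibrils of the interstitium, FACIT collagens attach to the surface of those fibrils, type IV collagens build the sheet of the basement membrane, and other families form beaded filaments, short-chain networks, anchoring fibrils or membrane-spanning molecules. In the lung, fibroblasts are a main source of the fibrillar chains, and the alveolar wall holds little more than a basement membrane, thin fibrils and elastic fibres between the capillaries and the airspace.

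Values are log2 signals of 1 probe set per gene, the one with the highest mean over the arrays. The signal of a probe set also depends on its sequence, so differences were taken between samples, and the level of a collagen was not set against that of another. In sorted cells measured in bulk, fewer cells of a kind and less RNA per cell cannot be told apart.

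The gates did not match the reporter's gene. Pdgfra was lower on the arrays labelled bright, at 4.84 to 5.54, than on those labelled dim, at 6.66 to 7.13, with a log2 difference of -1.75 ± 0.10 (SE of the fit, n = 6 arrays per subset, limma adjusted p = 9.9e-07). Only 1 named probe set measures it. Bright and dim below mean the labels. If the labels of the gates were exchanged, every sign of bright minus dim would turn and the subset named for each condition comparison would change, and this was not tested. The 7 fibroblast markers, which include Col1a1, Col1a2 and Col3a1, were all tested, 5 of them higher and 2 lower in bright (list mean 9.30 to 9.42 on bright and 8.05 to 8.37 on dim arrays). The 2 lower ones were Pdgfra and Tcf21 (-2.71, adjusted p = 2.4e-06). Of the adventitial fibroblast genes, 12 of 12 tested were higher in bright (list mean 9.51 to 10.17 on bright and 6.47 to 6.91 on dim arrays). That list contains the collagen Col14a1. Of the alveolar fibroblast genes, 12 of 12 tested were lower in bright (7.88 to 9.12 against 11.20 to 11.35), 6 of 8 myofibroblast and contractile genes tested were higher and 1 lower (6.57 to 7.11 against 5.24 to 5.55), and 5 of 8 mesothelial genes were higher (4.97 to 7.06 against 4.05 to 5.37; 2 to 7 of them over the alternative settings). Epithelial genes had 1 of 11 lower (6.45 to 7.80 against 6.71 to 7.83), and 6 of 7 chondrocyte genes, Col2a1 among them, stayed below the filter on every array (list mean 3.69 to 3.96). Pericyte genes had 2 of 4 tested higher and 1 lower, and their list mean did not overlap (5.49 to 5.82 against 4.51 to 4.92). Lymphocyte genes had 4 of 6 lower, also without overlap of the list mean (4.67 to 5.19 against 5.20 to 5.85), and endothelial genes 1 of 11 higher and 4 lower (5.62 to 6.10 against 5.46 to 6.26). Of the 12 genes of macrophages and dendritic cells 1 was higher and 2 were lower (6.08 to 6.59 against 5.91 to 7.28), neutrophil and mast cell genes 1 of 5 higher and 1 lower (4.23 to 5.20 against 3.91 to 6.11), and the 1 glial or neuronal gene tested was higher (4.99 to 5.47 against 4.63 to 4.92). Beside these counts, 28.5% of all genes tested were higher and 19.3% lower in bright. Lum, Scara5, Adh7, Aspn, Kcnj8, Wt1, Lrrn4, Rspo1, Tek and Il1r2 exceeded the filter (log2 5.101) on bright arrays only, and Cpa3 on dim arrays only. Such genes entered the test only through the subset where they are high, which limits what their part in the counts shows. The part of these lists in the collagen differences was not tested.

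The question asked first was which collagens differ between bright and dim cells, as the mean over the 3 conditions. Of the 32 genes tested, 21 differed by limma (adjusted p below 0.05), 14 higher and 7 lower in bright cells. That is 65.6%, beside 47.8% of all 11073 genes tested (28.5% higher, 19.3% lower). The classes went different ways. Fibrillar collagens had 7 of 8 higher and 0 lower, and FACIT collagens 2 of 5 higher and 0 lower. Type IV collagens had 4 of 6 higher and 0 lower, while the remaining families had 1 of 13 higher and 7 lower. Among those called higher, Col24a1, Col4a4 and Col12a1 exceeded the filter on bright arrays only (5, 3 and 2 arrays). These genes entered the test only through their bright signals, which limits what their part in the counts shows. The median log2 difference was 0.95 for the fibrillar genes, 0.05 for the FACIT genes, 0.98 for the type IV genes and -0.40 for the others, beside 0.05 for all genes tested. On 15 of the 32 the 6 bright arrays did not overlap the 6 dim arrays, beside 23.5% of all genes. The differences of 9 collagens that were higher and 4 that were lower exceeded 1 log2.

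**Figure D1:**
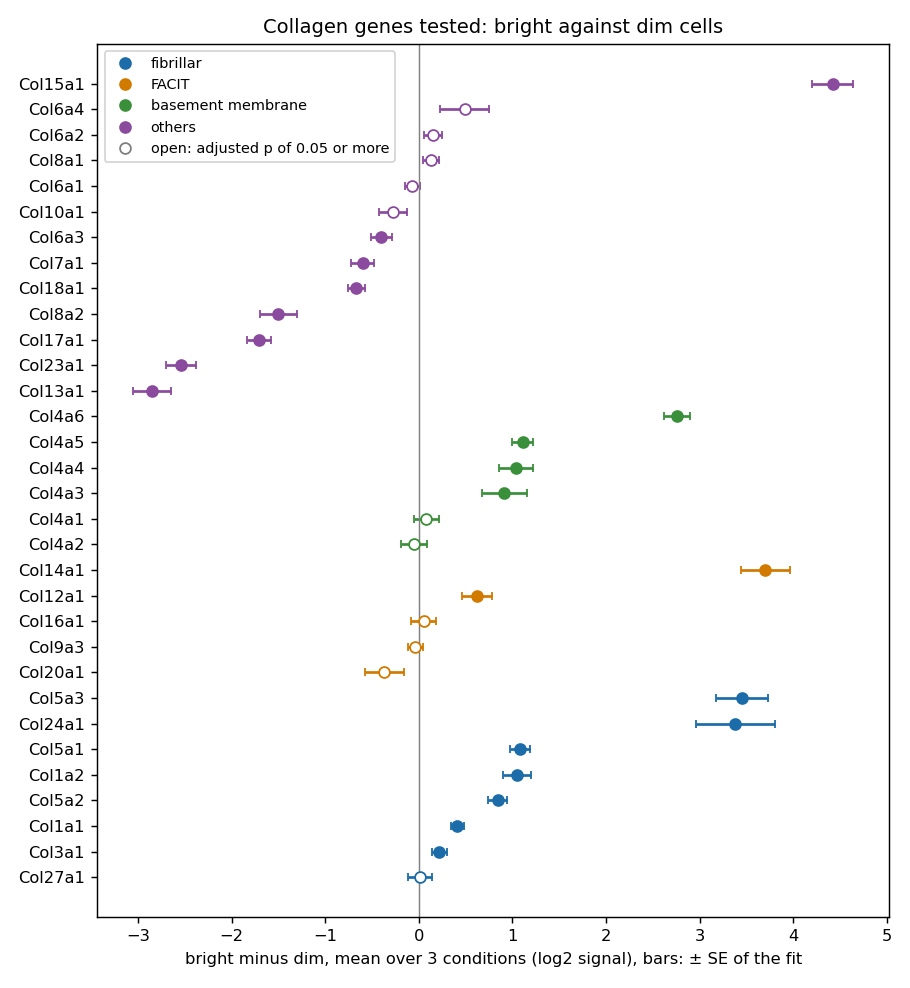
Each point is the log2 difference of bright minus dim cells for 1 of the 32 collagen genes tested, as the mean over the 3 conditions, with ± SE of the fit, coloured by class. Filled points passed limma's test at an adjusted p below 0.05. Col15a1 at 4.42 and Col13a1 at -2.85 lie at the ends, and both belong to the mixed group of other families.

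Among the 8 fibrillar genes tested, 2 minor chains had the largest differences on the probe sets used. Col5a3 encodes a chain of type V collagen, which regulates fibril diameter. On the bright arrays it had 8.51 and 8.15 in SHAM, 9.23 and 8.35 in PNX, and 10 and 9.47 in PNX-dnFGFR. On the dim arrays it had 5.4 and 6.55, 5.46 and 4.25, and 5.83 and 5.50 in the same order. Every bright array lay above every dim array, and the difference was 3.45 log2 ± 0.28 (n = 6 per subset, adjusted p = 1e-05), an 11.0-fold difference. Col24a1, which encodes a minor fibrillar collagen that is found with type I collagen in bone, had 5.66 and 3.94 in bright SHAM, 7.57 and 5.13 in bright PNX, and 7.67 and 7.35 in bright PNX-dnFGFR. Its dim arrays lay between 2.29 and 3.32, all below the filter at log2 5.101 (the median of all values), so the size of its difference (3.38 ± 0.42, adjusted p = 1.7e-04) is uncertain. With every value below the filter raised to it, called the held value below, Col24a1 had 1.31 (adjusted p = 0.014).

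On the probe sets used here, the major chains of the interstitial fibrils had smaller differences than Col5a3 and Col24a1. Those of Col1a1 and Col3a1 read near the top of the scale, so this order of sizes is not settled. Col1a1, which encodes the main chain of type I collagen, had 12.29 to 12.46 (median 12.35) on the bright and 11.82 to 12.12 (median 11.94) on the dim arrays. The arrays did not overlap, and the difference was 0.41 ± 0.07 (adjusted p = 0.0013). Col1a2, the partner chain of Col1a1, had 6.87 to 7.80 (median 7.44) on bright and 5.74 to 6.85 (median 6.34) on dim arrays. The Col1a2 arrays did not overlap, by a narrow margin, and the difference was 1.05 ± 0.15 (adjusted p = 4.6e-04). No second named probe set measures Col1a1 or Col1a2. The type V chain genes Col5a1 and Col5a2, whose products form most type V trimers, were higher by 1.08 ± 0.11 (adjusted p = 4.8e-05) and 0.84 ± 0.10 (adjusted p = 1.1e-04). Col5a1 lay at 10.50 to 11.14 on bright and 9.52 to 10.17 on dim arrays, and Col5a2 at 11.10 to 11.48 and 10.19 to 10.93, again without overlap. Col27a1, which encodes a fibrillar chain known from cartilage, did not pass, with 0.01 and a 95% interval of -0.27 to 0.30.

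Col3a1, the gene of type III collagen, was the weakest call. Its arrays overlapped, at 12.23 to 12.57 in bright and 12.03 to 12.26 in dim cells, and the difference was 0.22 ± 0.08 (adjusted p = 0.047). Without 1 array the value was 0.18 to 0.26, and it stayed past the threshold only when bright PNX replicate 2 or bright PNX-dnFGFR replicate 2 was the array left out. Without the filter (adjusted p = 0.054) and after another quantile normalization (0.062) it did not pass either. The probe sets of Col3a1 and Col1a1 both lay near the top of the scale, whose highest value on any array was 13.05. Whether signals that high still follow the amount of RNA was not tested.

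The second probe set of Col3a1, which reads far lower, gave another size. It lay at 8.0 to 8.99 on the bright and 6.05 to 7.30 on the dim arrays, without overlap, with a difference of 2.04 ± 0.18 (adjusted p = 1.2e-05 over 17992 probe sets fitted one by one, an alternative chosen after the data were seen). With the mean of both probe sets Col3a1 had 1.13. The direction is shared and the size is not settled by these data. Of the 11 collagens with more than 1 tested probe set, 10 had the same sign on all of them and Col27a1 did not. The probe sets of Col14a1 ranged from 3.70 to 4.24, of Col5a1 from 1.08 to 1.41, of Col5a2 from 0.84 to 1.18, of Col5a3 from 2.28 to 3.45 and of Col23a1 from -2.54 to -2.33. Counted one by one, 31 of 46 collagen probe sets passed, beside 47.5% of all probe sets.

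**Figure D2:**
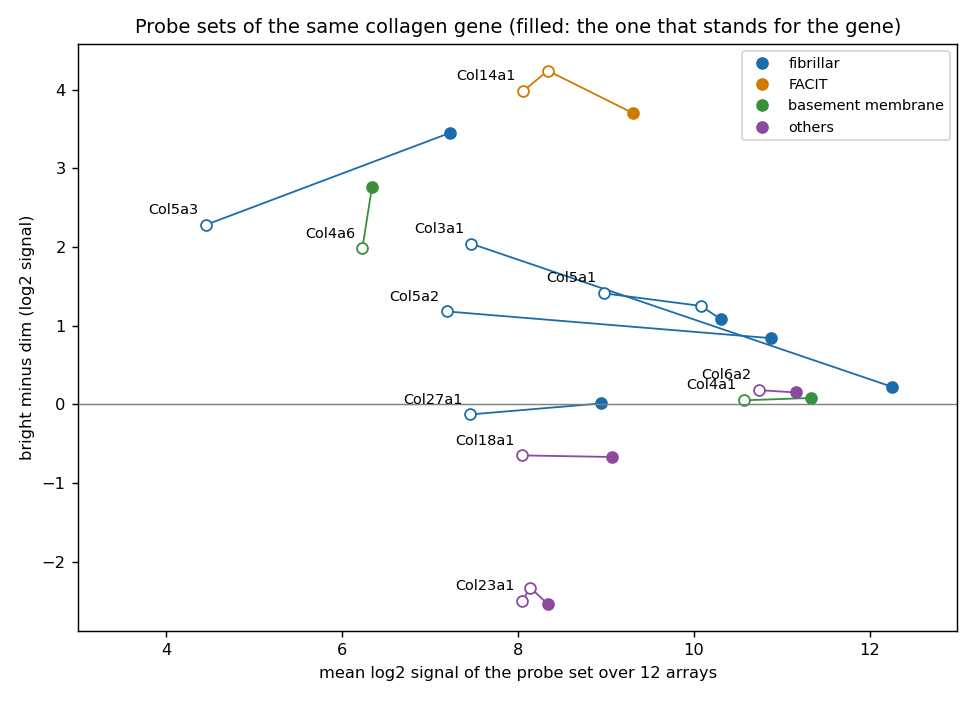
Each point is 1 probe set of a collagen gene with more than 1 tested probe set, by its mean log2 signal over the 12 arrays (x) and its bright minus dim difference (y, log2). Lines join probe sets of the same gene, and the filled point stands for the gene in the text. The line of Col3a1 runs from 2.04 at a mean of 7.47 to 0.22 at a mean of 12.26, and Col14a1 and Col23a1 keep their size.

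RefSeq (GRCm38.p6) windows of the 150 bases before the annotated start were at hand for 20 collagens, 17 of them tested. Those of Col5a3 (chr9:20815118-20815267, minus strand) and Col24a1 (chr3:145292322-145292471, plus strand) are shown because these are the fibrillar genes with the largest differences. Capitals mark matches, on either strand, to TATAAA (known as the TATA box), to CCAAT (a box bound by factors of many promoters) and to GGGCGG (the GC box).
Col5a3: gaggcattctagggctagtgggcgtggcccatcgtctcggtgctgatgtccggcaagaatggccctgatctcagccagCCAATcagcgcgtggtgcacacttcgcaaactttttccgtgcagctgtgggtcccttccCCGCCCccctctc
Col24a1: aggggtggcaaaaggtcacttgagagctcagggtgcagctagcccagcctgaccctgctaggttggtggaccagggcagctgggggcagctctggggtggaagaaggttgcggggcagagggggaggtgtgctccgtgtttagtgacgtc
The Col5a3 window held CCAAT once and GGGCGG once, and the Col24a1 window held none of the 3. Over all 17829 genes with such a window, TATAAA was present in 9.49%, CCAAT in 26.9% and GGGCGG in 25.3%, and among the 20 collagens in 3, 6 and 9. A match is a run of letters and was not tested as a binding site.

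Among the FACIT genes 2 of 5 were higher in bright cells. Col14a1 encodes a collagen that binds the surface of type I fibrils, and it is also on the adventitial marker list. It had 11.31 and 11.34 in bright SHAM, 11.09 and 11.46 in bright PNX, and 10.93 and 10.84 in bright PNX-dnFGFR. The dim arrays had 6.01 and 7.39, 8.28 and 7.69, and 8.22 and 7.19. The bright arrays were close to each other and the dim arrays spread over more than 2 log2 units, yet no array of one subset reached the other, and the difference was 3.70 ± 0.26 (adjusted p = 4.1e-06).

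Col12a1, the gene of a FACIT collagen of tendon and other load-bearing tissue, lay near the filter. It had 4.67 to 5.37 on bright and 3.79 to 4.93 on dim arrays, with overlap. The difference of 0.62 ± 0.16 passed (adjusted p = 0.0093), but the held value was 0.08 (adjusted p = 0.23), so the call rests on signals below the filter. The remaining 3 FACIT genes did not pass. Col16a1 had 0.05 (95% interval -0.23 to 0.34), Col9a3 -0.04 (-0.21 to 0.14) and Col20a1 -0.37 (-0.84 to 0.10).

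The type IV genes lie as 3 head-to-head pairs in the genome, and the pairs differed. Col4a1 and Col4a2, which encode the chains found in nearly every basement membrane, did not pass, with 0.08 (95% interval -0.21 to 0.37) and -0.05 (-0.36 to 0.27). Their arrays overlapped, at 10.67 to 11.69 against 11.11 to 11.53 for Col4a1. Col4a5 and Col4a6, whose chains form networks of specialised basement membranes such as those around smooth muscle and in kidney, were both higher in bright cells. Col4a6 had 7.35 to 7.96 (median 7.85) on the bright and 4.28 to 5.46 (median 4.99) on the dim arrays, and the gap of the subsets was wide. Its difference was 2.76 ± 0.14 (adjusted p = 5.5e-07, held value 2.52), the largest of the class. Col4a5 had 8.30 to 9.18 (median 8.82) against 7.43 to 8.12 (median 7.59), also without overlap, and a difference of 1.11 ± 0.11 (adjusted p = 3.4e-05).

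Col4a3 and Col4a4, whose chains join Col4a5 in the networks of the glomerulus and the alveolus, had low signals. Col4a3 lay at 4.68 to 6.52 on bright and 3.78 to 5.19 on dim arrays, with overlap, and Col4a4 at 4.70 to 6.25 and 4.11 to 4.82, with 1 bright array below the highest dim array. Their differences were 0.91 ± 0.24 (adjusted p = 0.013) and 1.04 ± 0.18 (adjusted p = 0.0011), with held values of 0.42 and 0.43. Each gene has a second probe set that stayed below the filter and was not tested. On these the bright minus dim value was 0.03 for Col4a3 and 0.39 for Col4a4, so neither call has a second tested probe set beside it. The 2 bright PNX arrays were the highest of all 12 for Col4a3, and for Col4a4 bright SHAM replicate 1, at 5.85, lay between them (5.76 and 6.25).

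**Figure D3:**
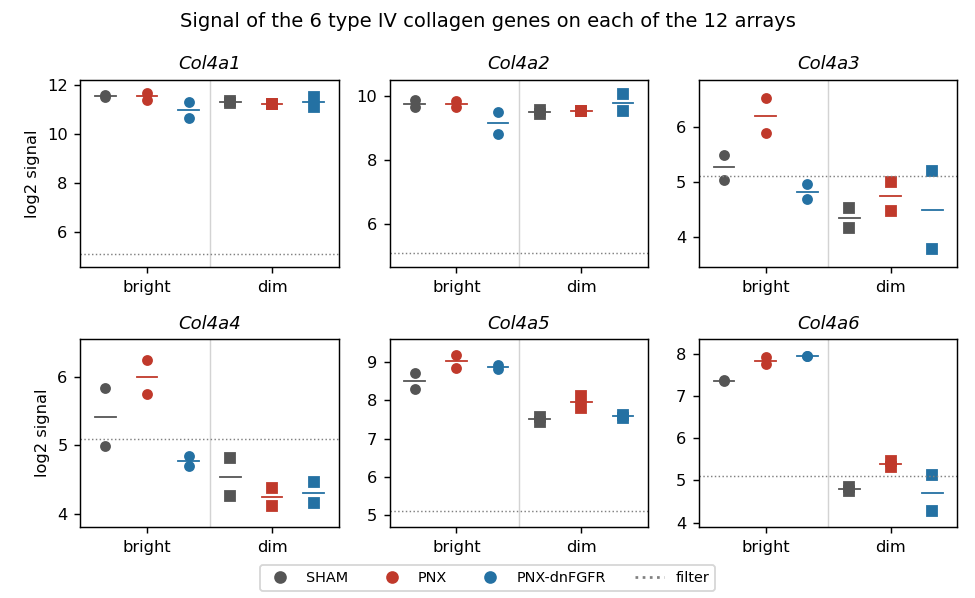
The log2 signal of each of the 6 type IV genes on every array, by subset (x) and condition (colour), with group means as short lines and the filter at log2 5.101 as a dotted line. Col4a5 and Col4a6 are separated by subset, Col4a1 and Col4a2 are not, and Col4a3 and Col4a4 cross the filter.

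The windows before the starts of Col4a6 (chrX:141474096-141474245, minus strand) and Col4a5 (chrX:141475220-141475369, plus strand), again from RefSeq (GRCm38.p6), are shown because this pair is read in opposite directions from neighbouring starts and both genes were higher in bright cells. Capitals mark the same 3 motifs.
Col4a6: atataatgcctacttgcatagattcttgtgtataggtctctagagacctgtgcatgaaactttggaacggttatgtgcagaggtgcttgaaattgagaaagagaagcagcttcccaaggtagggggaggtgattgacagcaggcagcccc
Col4a5: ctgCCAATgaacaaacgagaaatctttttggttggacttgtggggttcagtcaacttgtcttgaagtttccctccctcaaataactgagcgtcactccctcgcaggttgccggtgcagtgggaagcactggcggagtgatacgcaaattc
The Col4a5 window held CCAAT once, and the Col4a6 window held none of the 3.

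The largest difference of any collagen was that of Col15a1. It encodes a multiplexin, a collagen with interrupted helices that carries chondroitin sulfate and links basement membranes to the fibrils beneath. It had 10.13 and 10.23 in bright SHAM, 10.56 and 10.66 in bright PNX, and 10.01 and 9.79 in bright PNX-dnFGFR, and on the dim arrays 6.0 and 5.99, 6.43 and 5.21, and 6.10 and 5.13. No dim array came within 3 log2 units of a bright one. The difference was 4.42 ± 0.22 (adjusted p = 5.9e-07), or 21.4-fold. The other multiplexin, Col18a1, the precursor of endostatin, went the opposite way, at 8.42 to 8.90 on bright and 9.11 to 9.57 on dim arrays without overlap, with -0.67 ± 0.09 (adjusted p = 2.6e-04). Its second probe set gave -0.65.

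All 3 membrane-spanning collagens tested were lower in bright cells. These are chains with a transmembrane segment that sit on the cell surface and can be shed. Col13a1, found at adhesion sites, had 6.62 and 6.89 in bright SHAM, 6.27 and 7.40 in bright PNX, and 6.20 and 5.50 in bright PNX-dnFGFR, against 9.10 to 9.64 on the dim arrays. Col23a1 had 7.56 and 8.0, 6.68 and 7.57, and 6.45 and 6.16 on the bright arrays in the same order, against 9.28 to 9.78 on the dim arrays. For both, the dim arrays lay close to each other and the bright arrays were lower and more spread.

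Col17a1, a component of the hemidesmosome of epithelia, had 5.75 to 6.72 (median 6.17) on bright and 7.55 to 8.26 (median 8.04) on dim arrays, without overlap. The differences were -2.85 ± 0.20 for Col13a1 (adjusted p = 4.6e-06), -2.54 ± 0.16 for Col23a1 (adjusted p = 2e-06) and -1.71 ± 0.13 for Col17a1 (adjusted p = 6.2e-06). The alveolar fibroblast list, which holds no collagen, was lower on the same arrays, and the epithelial list was not (1 of 11 lower). The part of either list was not tested.

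The windows of Col17a1 (chr19:47692043-47692192, minus strand) and Col13a1 (chr10:61979207-61979356, minus strand) from RefSeq (GRCm38.p6) are shown because both genes were lower in bright cells and both windows held TATAAA, with capitals as before.
Col17a1: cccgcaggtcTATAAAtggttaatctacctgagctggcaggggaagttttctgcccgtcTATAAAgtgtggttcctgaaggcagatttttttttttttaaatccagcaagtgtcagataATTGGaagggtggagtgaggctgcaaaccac
Col13a1: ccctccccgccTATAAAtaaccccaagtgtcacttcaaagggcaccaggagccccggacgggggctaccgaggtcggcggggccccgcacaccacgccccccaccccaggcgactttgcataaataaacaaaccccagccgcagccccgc
TATAAA was found 2 times in the Col17a1 window and 1 time in that of Col13a1. The remaining collagen window with TATAAA was that of Col3a1, a gene with the opposite direction. The windows of Col6a3, Col7a1, Col18a1 and Col8a2, which were also lower in bright cells, held no TATAAA.

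Among the other families, Col8a2 and Col7a1 were lower in bright cells. Col8a2, a chain of the hexagonal network known from the cornea, had 4.27 to 5.47 on bright and 6.17 to 6.56 on dim arrays, without overlap, with -1.5 ± 0.20 (adjusted p = 2.4e-04, held value -1.17). Col7a1, the gene of the anchoring fibril, had 4.70 to 5.70 and 5.49 to 6.04, with overlap, and -0.60 ± 0.12 (adjusted p = 0.0033). Of the 4 beaded filament genes tested 1 was lower and 3 did not pass. Col6a3 was lower, at 10.28 to 11.00 on bright and 10.90 to 11.29 on dim arrays, with -0.40 ± 0.11 (adjusted p = 0.016). Col6a1 (-0.07, 95% interval -0.25 to 0.11), Col6a2 (0.15, -0.08 to 0.37) and Col6a4 (0.49, -0.10 to 1.08) did not pass, and neither did the network genes Col8a1 (0.13, -0.08 to 0.34) and Col10a1 (-0.28, -0.62 to 0.07).

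**Figure D4:**
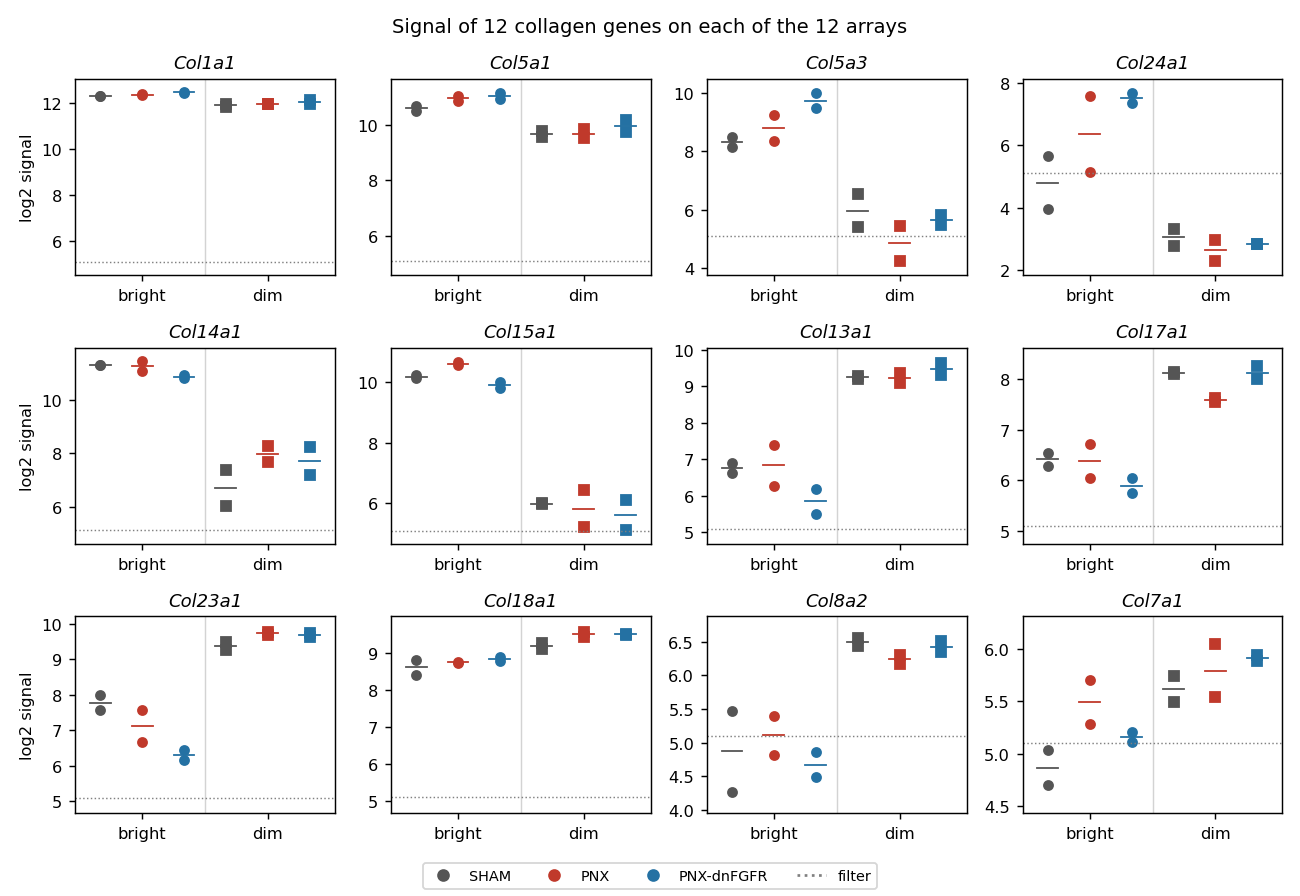
The log2 signal of 12 collagen genes on every array, by subset (x) and condition (colour), with group means as short lines and the filter at log2 5.101 as a dotted line; each panel has its own scale. In 11 of the panels no bright array overlaps a dim array, and in that of Col7a1 they overlap.

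The remaining 10 collagens stayed below the filter and were not tested. They were Col2a1, Col11a1, Col11a2, Col9a1, Col9a2, Col19a1, Col22a1, Col6a5, Col25a1 and Col26a1. Several of them, such as Col2a1, Col9a1 and Col11a1, are best known from cartilage. Their signals lay between 2.46 and 5.20, and only Col25a1 passed the filter's value at all, on 1 array. At this level a signal cannot be set apart from background, so nothing is said of differences between their groups.

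Whether probe sets of chains of the same collagen type differed by equal amounts was asked for 9 pairs. For each pair the difference of the 2 log2 signals within each array was compared between bright and dim arrays with an exact permutation test, two-sided, over 216 arrangements within conditions (smallest possible p 0.0093), adjusted over the 9 pairs. The test passed for 6 and not for 3. The bright minus dim difference was smaller on the probe set of Col4a5 than on that of Col4a6 (first minus second -1.65 log2, adjusted p = 0.017) and smaller on that of Col5a1 than on that of Col5a3 (-2.37, adjusted p = 0.017). It was also smaller on the probe set of Col1a1 than on that of Col1a2 (-0.64, adjusted p = 0.017), but the Col1a1 signal lies near the top of the scale, so this value is not read as unequal change of the 2 chains.

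Col8a1 did not follow Col8a2 (1.63, adjusted p = 0.017). Within type VI collagen the inequalities were small, 0.32 for Col6a1 against Col6a3 (adjusted p = 0.017) and -0.22 for Col6a1 against Col6a2 (adjusted p = 0.028). Col4a1 against Col4a2 (0.13, adjusted p = 0.083), Col5a1 against Col5a2 (0.24, adjusted p = 0.071) and Col4a3 against Col4a4 (-0.13, adjusted p = 0.70) did not pass in the exact test. Such a value shows that 2 probe sets changed unequally. With the mean of all probe sets of a gene the inequality was -1.33 for Col4a5 against Col4a6 and -1.62 for Col5a1 against Col5a3.

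Condition by condition, 15 collagens differed between bright and dim cells in SHAM, 9 higher (beside 11.5% of all genes) and 6 lower (beside 7.53%). In PNX 16 differed, 12 higher (beside 11.4%) and 4 lower (beside 7.07%), and in PNX-dnFGFR 17, 10 higher (beside 21.0%) and 7 lower (beside 13.5%). Without dim SHAM replicate 1 the SHAM count was 9. All of the 21 collagens called for the mean had the same sign in the 3 conditions. Of these, 13 passed in each of the 3, and Col24a1, Col7a1 and Col8a2 in 2. Col4a3 and Col4a4 passed only in PNX, Col6a3 only in PNX-dnFGFR, and Col3a1 and Col12a1 in no single condition. The 21 were chosen by the mean of these 3 differences, so shared signs and repeated passes follow in part from that choice. The same shares among all genes called for the mean were not computed. Passing in one condition and not in another does not show a difference between them, which is tested further on.

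What differs with surgery and with the dominant-negative receptor was asked by comparing conditions. For PNX minus SHAM as the mean over both subsets limma called 0 of the 32 collagens, beside 0.144% of all genes, and 5 had an unadjusted p below 0.05, beside 16.1%. In bright cells it called 0 (beside 0.00903%; 3 unadjusted, beside 8.24%) and in dim cells 0 (beside 0.0452%; 7 unadjusted, beside 12.2%). The differences of the mean ran from -0.33 to 0.67. For Col1a1 the 95% interval was -0.14 to 0.26 and for Col3a1 -0.14 to 0.30, so that a change of these probe sets by more than 0.30 log2 lies outside both. Both read near the top of the scale, so this bounds their signal and not the amount of RNA. The second probe set of Col3a1 was not fitted on its own for this comparison. The smallest p belonged to Col4a5, with 0.49 ± 0.13 (adjusted p = 0.13, 4 arrays per condition), from 8.70 and 8.30 in bright SHAM and 9.18 and 8.84 in bright PNX, and from 7.43 and 7.57 in dim SHAM and 7.81 and 8.12 in dim PNX. Its neighbour Col4a6 had 0.53 ± 0.17 (adjusted p = 0.18). In both genes each PNX array lay above the SHAM arrays of its subset. The share of all genes with such an order was not computed, and neither gene passed.

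In dim cells the largest positive difference of PNX minus SHAM was that of Col14a1, at 1.29 ± 0.44 (n = 2 arrays per group, adjusted p = 0.30), and the largest negative that of Col5a3, at -1.12 ± 0.48 (adjusted p = 0.39). In bright cells Col24a1 had 1.55 ± 0.73 (adjusted p = 0.62). Its bright PNX arrays were far apart, 7.57 on replicate 1 and 5.13 on replicate 2. The mean of the mesothelial markers was 7.06 and 4.97 on the same 2 arrays, and its part in the Col24a1 value was not tested.

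For PNX-dnFGFR minus PNX limma called 0 collagens as the mean over both subsets (beside 0.0%; 4 unadjusted, beside 12.5%), 0 in bright (beside 0.00903%; 8 unadjusted, beside 12.6%) and 0 in dim cells (beside 0.0%; 2 unadjusted, beside 7.79%). The type IV genes Col4a3 and Col4a4 had the largest bright differences below 0. Col4a3 had 5.89 and 6.52 in bright PNX and 4.96 and 4.68 in bright PNX-dnFGFR, a difference of -1.39 ± 0.42 (adjusted p = 0.21), and Col4a4 5.76 and 6.25 against 4.85 and 4.70, -1.23 ± 0.31 (adjusted p = 0.15). The arrays of the 2 groups did not overlap in either gene, and the PNX-dnFGFR arrays lay below the filter. The share of all genes without overlap of these 2 groups was not computed. Without bright PNX replicate 1 the bright PNX side of this comparison is 1 array. Col13a1 then had -1.55 and Col23a1 -1.26, beside -0.98 and -0.82 with all arrays.

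For PNX-dnFGFR minus SHAM limma called 0 collagens as the mean over both subsets (beside 2.0%; 6 unadjusted, beside 21.6%) and 0 in dim cells (beside 0.0181%; 3 unadjusted, beside 9.52%). In bright cells it called 1, beside 5.2% of all genes (2.6% higher, 2.6% lower; 9 collagens unadjusted, beside 22.8%). That gene was Col23a1, which fell from 7.56 and 8.0 in bright SHAM to 6.45 and 6.16 in bright PNX-dnFGFR, with 6.68 and 7.57 in bright PNX between them. The arrays of SHAM and PNX-dnFGFR did not overlap, but the share of all genes without such overlap was not computed. The difference was -1.48 ± 0.27 (n = 2 arrays per group, adjusted p = 0.023). Without bright SHAM replicate 1 or 2, or bright PNX-dnFGFR replicate 1 or 2, the value was -1.70, -1.26, -1.62 and -1.34, and it no longer passed (adjusted p = 0.053, 0.17, 0.068 and 0.13). Col13a1 (-0.91, adjusted p = 0.16) and Col17a1 (-0.52, adjusted p = 0.20) had the same sign and did not pass. The mean of the 12 alveolar fibroblast markers on the same arrays was 8.80 and 9.12 in bright SHAM, 8.48 and 8.87 in bright PNX, and 7.88 and 7.89 in bright PNX-dnFGFR, and its part in the Col23a1 value was not tested.

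The fibrillar genes of bright cells had differences of PNX-dnFGFR minus SHAM mostly above 0, with a median of 0.30 over the 8 tested beside 0.02 over all genes. Col24a1 had 2.71 ± 0.73 (adjusted p = 0.064), Col5a3 1.41 ± 0.48 (adjusted p = 0.12) and Col1a2 0.72 ± 0.27 (adjusted p = 0.15). Col24a1 passed under the stricter filter and with a variance trend (adjusted p = 0.049 in both), and with the replicate block (0.023). It did not pass without a filter, after the second quantile normalization, with the mean of probe sets, with held values or with only the groups compared. Its bright SHAM arrays, at 5.66 and 3.94, lay on both sides of the filter. Without either bright PNX array the value stayed 2.71, because those arrays are not part of this comparison. They do enter the shared estimate of the spread, so the test result can change while the value does not. Col5a3 passed with the mean of its probe sets (1.36, adjusted p = 0.025) and with only the groups compared (1.41, adjusted p = 0.044). Among the type IV genes Col4a6 passed with values held at the filter (0.59, adjusted p = 0.017). Col1a2 had 0.70 ± 0.19 as the mean over both subsets (adjusted p = 0.087), and Col1a1 0.15 with a 95% interval of -0.05 to 0.35.

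**Figure D5:**
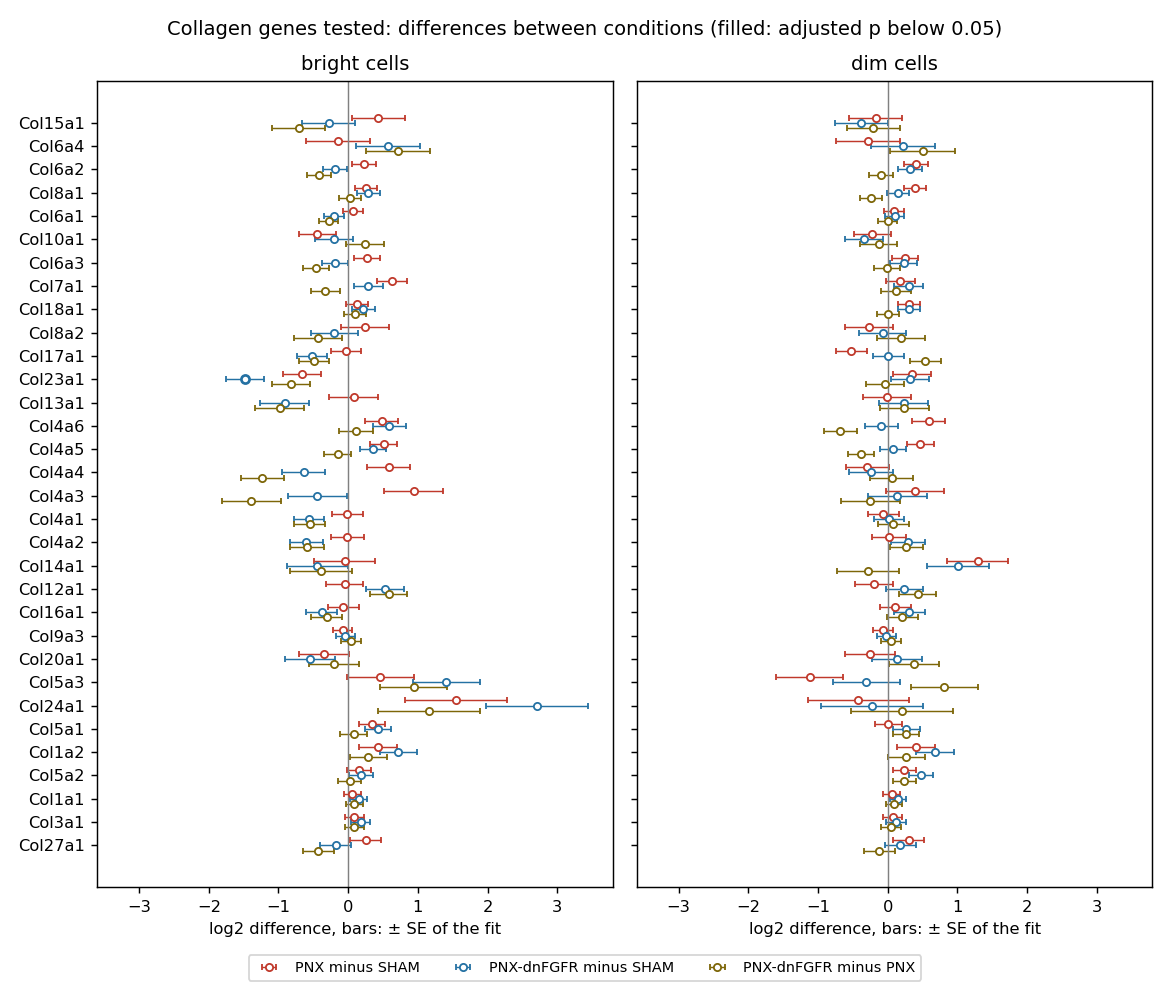
Log2 differences between conditions for the 32 collagen genes tested, in bright cells (left) and dim cells (right), with ± SE of the fit. Red is PNX minus SHAM, blue PNX-dnFGFR minus SHAM and brown PNX-dnFGFR minus PNX, and the 3 share groups. The only filled point, past an adjusted p of 0.05, is Col23a1 at -1.48 in bright cells.

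Whether the difference between the subsets itself changed with the condition was tested as a difference of effects. Limma called 0 collagens for PNX against SHAM (beside 0.0%; 2 unadjusted, beside 4.47%), 0 for PNX-dnFGFR against PNX (beside 0.0%; 5 unadjusted, beside 8.21%) and 0 for PNX-dnFGFR against SHAM (beside 0.126%; 6 unadjusted, beside 12.7%). Col23a1 had the smallest p, with -1.79 ± 0.38 for PNX-dnFGFR against SHAM (adjusted p = 0.12). It passed with the mean of its probe sets (-1.73, adjusted p = 0.049) and without either bright PNX array (-1.79, adjusted p = 0.03). On simulated data this test recovered 0% of the changes of 1 log2 for PNX against SHAM, so a miss says little about changes of that size.

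Collagen chains are hydroxylated and folded in the endoplasmic reticulum, trimmed after secretion, cross-linked, and bound by receptors, and 29 of 38 genes listed for these steps were tested. Between the subsets 21 of the 29 passed, 17 higher and 4 lower in bright cells, or 72.4% beside the 47.8% of all genes (16 to 22 with single arrays left out). Hydroxylation had 8 of 11 higher and 1 lower, and folding and glycosylation 1 of 3 higher and 1 lower. Export and propeptide removal had 2 of 5 higher and 1 lower, and receptors 3 of 5 higher. P4ha3, Itga1 and Itga10 exceeded the filter on bright arrays only. These genes entered the test only through their bright signals, which limits what their part in the counts shows. The difference of Itga1 was 0.65 with a held value of 0.14, and that of Itga10 1.08 with a held value of 0.79. Cross-linking had 3 of 5 higher and 1 lower, and the lower one was Lox (-0.60 ± 0.10, adjusted p = 9.8e-04). Its arrays overlapped, at 9.31 to 10.80 in bright and 10.28 to 10.81 in dim cells. By condition limma called Lox only in SHAM (-1.40, adjusted p = 0.0006). It did not pass in PNX (-0.27, adjusted p = 0.32) or in PNX-dnFGFR (-0.13, adjusted p = 0.60). The difference of effects of Lox for PNX against SHAM did not pass either (1.12, adjusted p = 0.77). Loxl2 and Loxl3, lysyl oxidase-like enzymes of cross-linking, were higher by 1.75 ± 0.10 (adjusted p = 1.7e-06) and 1.28 ± 0.12 (adjusted p = 2.6e-05). Loxl2 had 7.20 to 8.29 on bright and 5.86 to 6.45 on dim arrays. Bmp1, the protease that removes the C-terminal propeptide of fibrillar collagens, had 10.43 to 11.30 and 7.59 to 8.69, with 2.54 ± 0.19 (adjusted p = 5.6e-06).

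Crtap, a subunit of the prolyl 3-hydroxylase complex, was higher by 1.19 ± 0.09 (adjusted p = 5.2e-06), and P4ha3, a catalytic subunit of prolyl 4-hydroxylase, by 2.94 ± 0.26 (adjusted p = 1.7e-05, held value 1.97). Colgalt2, which adds galactose to hydroxylysine, was lower, at 4.40 to 5.30 against 5.61 to 6.09, with -1.21 ± 0.09 (adjusted p = 4.8e-06, held value -0.76). For PNX minus SHAM as the mean over both subsets limma called 0 of the 29, beside 0.144% of all genes. For PNX-dnFGFR minus SHAM it called 4 of the 29 as the mean over both subsets, 2 higher and 2 lower, beside 2.0% of all genes, a count that ran from 0 to 6 with single arrays left out. In bright cells it called 6, or 20.7%, 4 higher and 2 lower, beside 5.2% of all genes (2.6% higher, 2.6% lower), a count that ran from 0 to 7 with single arrays left out. The smallest p was that of Lox, the gene of lysyl oxidase, which rose from 9.35 and 9.31 in bright SHAM to 10.80 and 10.49 in bright PNX-dnFGFR, with 10.19 and 10.28 in bright PNX between them. Its difference was 1.31 ± 0.17 (adjusted p = 0.01), and without bright SHAM replicate 2 it had 1.29 and did not pass (adjusted p = 0.086).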

How the data were processed

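RNA of 2000 sorted cells per sample was copied and amplified as whole-transcriptome cDNA for 25 cycles, until the amplification reached a plateau, per the labels' protocols, and hybridised to Affymetrix arrays. Such amplification can compress or stretch differences. The values deposited by the authors are log2 signals made by RMA, per the submitters' processing notes; its version was not given in the sources used here. RMA normalizes all arrays to 1 distribution, so array medians lay between 5.06 and 5.13 and a shift of all genes at once cannot be seen. Of 45141 probe sets, 104 were controls, and 28898 named 1 gene in the platform annotation. The probe set with the highest mean stood for a gene. A gene was tested where 2 or more arrays exceeded log2 5.101, which is the median signal.

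The 12 arrays were fitted with limma 3.58.1 (R 4.3.3) with 1 mean per group and no covariate, and p-values were adjusted by Benjamini-Hochberg over the 11073 genes tested. The residual degrees of freedom were 6, and 2 arrays per group limit the precision. Pairs of chains were tested with an exact permutation test (SciPy 1.17.1, Python 3.11.15). Intervals are 95% intervals of the fit. On simulated data with 200 of 11073 genes changed by 1 log2, limma recovered 96.5% for bright minus dim as the mean over conditions, 61.0% for it in SHAM, 87.0% for PNX minus SHAM as the mean over subsets and 48.0% for it in bright cells.

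The members, gene lists and tests were chosen with earlier results of these data known. Every collagen of the annotation is accounted for, and pathway genes were named by the smallest adjusted p, up to 6 per comparison. Lox was named for bright minus dim outside this rule. Alternatives tried were a stricter filter (log2 6.762), no filter at all, a second quantile normalization, the mean of probe sets, a variance trend, only the groups compared, a replicate block, values held at the filter and each array left out. The fit of each probe set on its own was added after the data were seen. The labels do not say that replicates are separate animals, so p-values measure the spread between these samples, and the bright and dim samples may share animals.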

Additional observations from a re-analysis of the deposited data

How the results depend on the processing

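With all arrays kept, the count of collagens that differed between bright and dim cells as the mean over conditions was 20 or 21 under each alternative but the stricter filter, where fewer genes were tested and 16 passed. With single arrays left out it was 20 to 23, in SHAM 9 to 15 (9 without dim SHAM replicate 1), in PNX 12 to 15 and in PNX-dnFGFR 13 to 18. For PNX-dnFGFR minus SHAM in bright cells, 2 collagens passed in place of 1 with the stricter filter, the mean of probe sets, a variance trend, values held at the filter, only the groups compared, or the replicate block, and 0 to 2 with single arrays left out. For the same comparison over both subsets, and for the difference of effects of PNX-dnFGFR against SHAM, 1 passed in place of 0 with the mean of probe sets, and 0 to 1 with single arrays left out. For PNX-dnFGFR minus PNX in bright cells 0 to 2 passed with single arrays left out. The chain pairs past the threshold numbered 6 to 7, and Col4a3 against Col4a4 (-0.42 to 0.16 with single arrays left out) turned to 0.03 without dim SHAM replicate 1 and to 0.16 without dim PNX-dnFGFR replicate 2. The cause of these changes was not tested. Of 1814 recomputed values of the single genes and pairs followed through the alternatives, 1649 kept direction and side of the threshold, 161 no longer passed, 2 turned direction and 2, both chain pairs, newly passed. Outside these, 19 values of 7 collagens that had not passed did so under an alternative, counted without the bright minus dim comparisons within single conditions.

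The labels tie no replicate number to an animal or a day, and same-numbered samples did not all deviate together, so the numbers were not taken as pairs. The correlation of deviations was 0.01, 0.0 and 0.13 between bright and dim samples of SHAM, PNX and PNX-dnFGFR. Between SHAM and PNX, SHAM and PNX-dnFGFR, and PNX and PNX-dnFGFR it was 0.29, 0.35 and 0.06 in bright and 0.17, -0.09 and 0.0 in dim samples. With the replicate block 21 collagens differed between bright and dim cells, 20 of them among the 21 without it: Col3a1 did not pass (adjusted p = 0.089) and Col6a4 did (0.49, adjusted p = 0.011). For PNX-dnFGFR minus SHAM in bright cells Col24a1 passed with the block (2.71, adjusted p = 0.023).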
